A study of Mus musculus with 6 samples.

Results

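Integrins, laminins and the proteins that tie laminin to the rest of the basement membrane were followed in 6 RNA-seq libraries of mouse muscle stroma. The members were all protein_coding genes of GENCODE vM21 named as integrin alpha subunits, integrin beta subunits 1 to 8 or laminin chains, together with Nid1, Nid2, Hspg2 and Agrn. These were 41 of the 55536 genes in the count tables, 26 integrin genes and 15 genes of laminin chains and linkers. There were 3 libraries of p16+ cells and 3 of p16- cells. Cells of both groups carried a tdTomato reporter of p16 on the C57Bl/6 background, came from a foreign body fibrosis model, and were sorted as CD45-CD31-CD29+. The p16+ cells were tdTomato positive and the p16- cells tdTomato negative. Per the labels' protocols, quadriceps muscle was resected at 10 weeks of age, the defect received polycaprolactone, decellularized matrix or saline, and tissue was taken 1 or 6 weeks later. Which filler and time applied to each library is not stated in the sources used, nor whether replicates were separate animals, and p-values therefore reflect only the spread among these 6 libraries. CD29 is the protein of Itgb1, so the sort itself selected cells on a member of the group studied.

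An integrin is a pair of membrane proteins, an alpha and a beta subunit, that links the matrix outside a cell to actin inside it. The alpha subunit largely sets the ligand: some bind collagens, some laminins, some the RGD sequence of fibronectin and vitronectin, and some occur on leukocytes. A laminin is a cross-shaped trimer of an alpha, a beta and a gamma chain that polymerises into the sheet of a basement membrane. Nidogens and perlecan (Hspg2) tie that sheet to collagen IV, and agrin (Agrn) ties it to dystroglycan. In muscle, the laminin with the alpha2 chain surrounds the fibres, and that with the alpha4 chain is common around vessels and in interstitial stroma.

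Library totals were 35253406 to 37861713 counts for p16+ and 36507067 to 39103909 for p16-. Values are given in CPM, counts scaled to library size and TMM factors, and levels of different genes are compared in RPKM, which is CPM per kilobase of exon. The sort was checked through Cdkn2a, which encodes p16 and stood at 6.91, 8.82 and 7.74 CPM in p16+ libraries, against 2.41, 1.77 and 2.20 CPM in p16- libraries. These counts cover the whole gene and do not separate its transcripts, and tdTomato itself was not among the genes counted. On the first principal component, with 41.2% of the variance, the groups stood on opposite sides, and on the second p16+ replicates 2 and 3 lay farthest apart. Stromal markers summed to 151633 to 159079 CPM in p16+ libraries and 89527 to 107082 CPM in p16-, far above any other marker list. Most of that sum was Col1a1, Col1a2 and Col3a1. At an adjusted p under 0.05 by edgeR, 6 of the 8 genes were higher and 0 lower, beside 8.69% and 8.04% of all genes tested. Dcn and Pdgfra did not pass, at means of 7884 and 866 CPM in p16+ libraries, against 8744 and 1018 CPM in p16-. Macrophage and other leukocyte markers summed to 302 to 354 CPM in p16+ libraries and 214 to 240.1 CPM in p16-. Pericyte and smooth muscle markers summed to 1975 to 2059 CPM in p16+ libraries and 1278 to 1653 CPM in p16-, and Schwann and glial markers to 290 to 333 CPM in p16+ libraries and 444.1 to 517 CPM in p16-. In bulk RNA, fewer cells of a type and less RNA per cell cannot be told apart.

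The question put to these data was which matrix receptors and basement membrane parts differ between reporter-positive and reporter-negative stroma. Of the 41 members, 39 passed the filter on low counts. The exceptions were Itgad, with 0 counts in each of the 6 libraries, which allows up to 0.0876 CPM in a library by counting error alone, and Itgae, with 0 to 8 counts. At an adjusted p under 0.05 by edgeR's quasi-likelihood test over all 15903 genes tested, 9 members were higher and 9 lower in p16+. That was 46.2% of the members tested, where 16.7% of all genes tested were called, 8.69% higher and 8.04% lower. In 21 of the 39 the 3 values of each group did not overlap, as in 33.1% of all genes tested. By abundance, 8 of 15 members at a mean of 10 RPKM or more, 8 of 12 between 1 and 10 RPKM and 2 of 12 under 1 RPKM were called. The share of all genes called in the same bands was not computed. These counts and the 46.2% therefore have no comparator of like abundance. The median log2 fold change of the 39 was 0.23, against -0.01 over all genes tested. With library sizes alone as scaling, 5 members were higher and 10 lower, and the share of higher genes among all called was 36.0%, against 52.0% with TMM. Without p16+ replicate 3, 5 members were called higher, and of all genes 989, against 1382 with all 6 libraries. Without replicate 2 or 3 of p16+ or replicate 1 or 3 of p16-, 6 were called lower. Of all genes, 960, 966, 1194 and 910 were called lower in these runs, in that order, against 1278 with all 6 libraries.

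**Figure D1:**
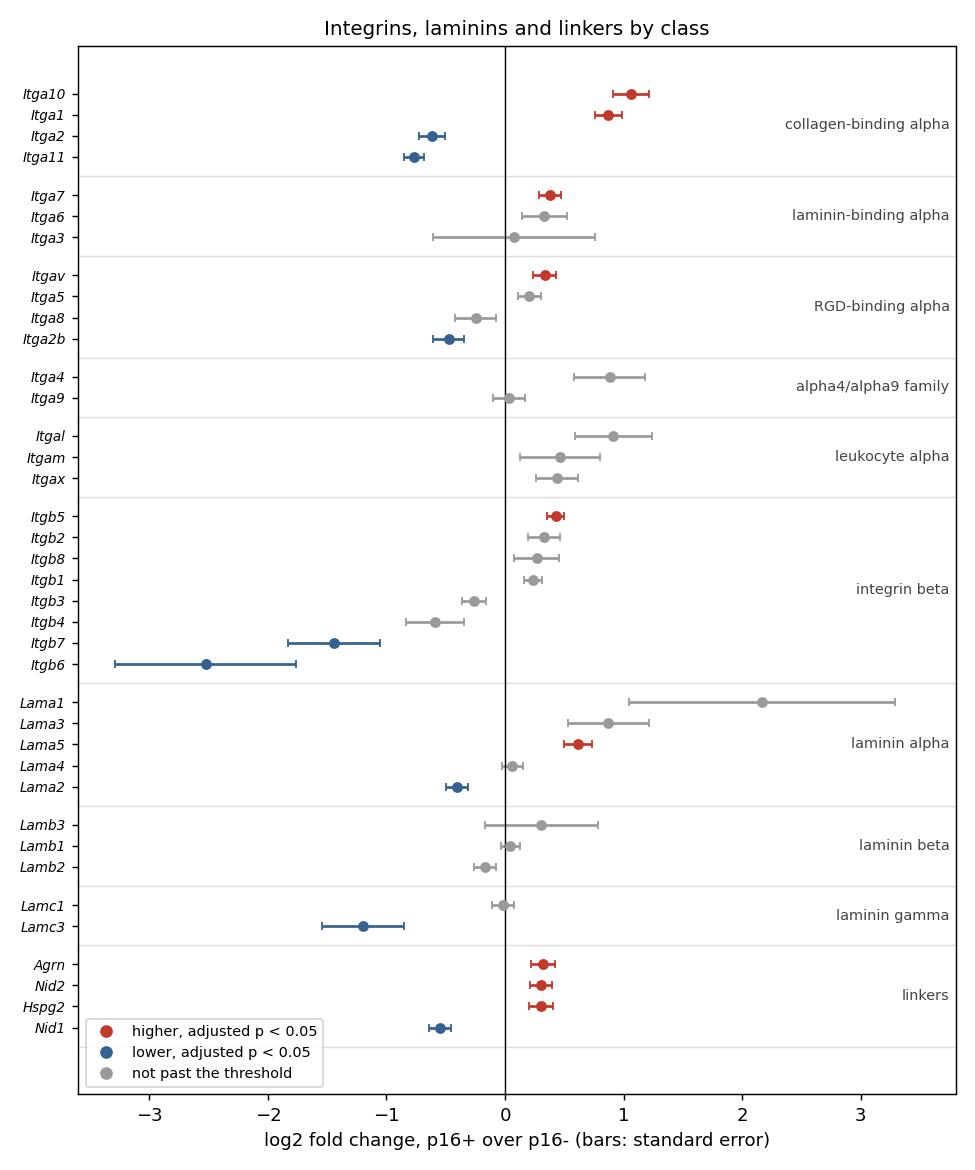
Log2 fold change of p16+ over p16- with its standard error for the tested members reported here, grouped by class from top to bottom. Red points passed the threshold as higher, blue as lower, and grey points did not pass; in the class of collagen-binding subunits Itga10 and Itga1 lie right of 0 and Itga2 and Itga11 left of it.

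The clearest contrast within a class was among the collagen-binding alpha subunits, all of which pair with the beta1 subunit. Of these 4 genes, 2 rose and 2 fell in p16+ cells, beside 8.69% and 8.04% of all genes tested. In each of the 4 the groups did not overlap, as in 33.1% of all genes tested. Their promoters, each 250 bases before to 50 after the RefSeq start (GRCm38.p6), are shown because these 4 genes went in opposite directions and Itga1 and Itga2 are neighbours. Capitals mark the motifs searched on both strands: the AP-1 letters TGANTCA, the GC box GGGCGG, the TEAD letters CATTCC and the TATA letters TATAAA.
Itga1, chr13:115101915-115102214, minus strand: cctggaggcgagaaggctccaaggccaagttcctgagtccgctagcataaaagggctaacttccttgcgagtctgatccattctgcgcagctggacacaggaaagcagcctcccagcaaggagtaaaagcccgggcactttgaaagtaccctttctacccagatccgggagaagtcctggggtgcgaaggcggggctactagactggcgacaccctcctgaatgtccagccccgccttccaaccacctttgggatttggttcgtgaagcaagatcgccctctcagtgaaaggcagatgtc
Itga2, chr13:114932051-114932350, minus strand: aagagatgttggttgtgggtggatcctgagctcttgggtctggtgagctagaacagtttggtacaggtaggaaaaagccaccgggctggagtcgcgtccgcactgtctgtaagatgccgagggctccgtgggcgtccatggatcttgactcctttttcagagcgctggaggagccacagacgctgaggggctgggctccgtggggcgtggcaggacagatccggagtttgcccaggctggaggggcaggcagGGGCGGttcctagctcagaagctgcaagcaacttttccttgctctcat
Itga10, chr3:96645334-96645633, plus strand: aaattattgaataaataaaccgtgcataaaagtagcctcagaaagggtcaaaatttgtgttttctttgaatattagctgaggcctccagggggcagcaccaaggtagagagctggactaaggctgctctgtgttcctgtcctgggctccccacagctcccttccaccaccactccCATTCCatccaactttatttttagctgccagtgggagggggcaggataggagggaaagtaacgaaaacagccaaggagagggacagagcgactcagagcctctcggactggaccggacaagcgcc
Itga11, chr9:62677605-62677904, plus strand: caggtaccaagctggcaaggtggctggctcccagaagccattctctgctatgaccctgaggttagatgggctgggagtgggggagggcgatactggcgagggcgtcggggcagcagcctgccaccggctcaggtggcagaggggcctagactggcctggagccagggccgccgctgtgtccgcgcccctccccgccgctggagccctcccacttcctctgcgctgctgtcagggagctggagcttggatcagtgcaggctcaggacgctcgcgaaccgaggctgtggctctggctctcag
Itga2 held 1 GC box, a motif found in 35.7% of the 32841 windows of 300 bases in the table, and Itga10 held 1 TEAD motif, found in 14.7% of them. The windows of Itga1 and Itga11 held none of the 4 motifs. The AP-1 letters were in 7.81% and the TATA letters in 13.6% of all windows. With at most 1 match in a window, no matches overlap. The GC content of the windows was 56.7% for Itga1, 59.3% for Itga2, 51.0% for Itga10 and 68.0% for Itga11, against a median of 52.7% over all windows.

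Itga1 encodes the alpha1 subunit, a receptor that prefers collagen IV and is known from smooth muscle and other mesenchymal cells. It had 112, 142 and 153 CPM in p16+ libraries, against 64.4, 77.7 and 79.8 CPM in p16- libraries. All p16+ values lay above all p16- values. The log2 fold change was 0.87 (SE 0.11, adjusted p = 3.87e-05 by edgeR), or 1.83-fold. Itga10, whose alpha10 subunit is a collagen II receptor of cartilage, had 27.8, 25.5 and 24.1 CPM in p16+ libraries, against 13.3, 9.18 and 14.5 CPM in p16- libraries. Again the groups were apart, with the largest change of the class at a log2 fold change of 1.06 with SE 0.15 (adjusted p = 0.000108 by edgeR). Of the exonic length of Itga10, 33.5% is shared with Gm42957 on the same strand, and by default the program does not count fragments in shared exons.

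Itga11 encodes the alpha11 subunit, a receptor of fibrillar collagen on fibroblasts. It had 143, 129 and 131 CPM in p16+ libraries, against 206, 239 and 242 CPM in p16- libraries. The lowest p16- value was above the highest p16+ value, at a log2 fold change of -0.76 with SE 0.08 (adjusted p = 9.26e-06 by edgeR). Itga2, whose alpha2 subunit is a fibrillar collagen receptor known best from platelets and epithelium, had 17.2, 17.0 and 19.1 CPM in p16+ libraries, against 25.2, 29.7 and 26.9 CPM in p16- libraries. It too was separated between groups, at a log2 fold change of -0.62 with SE 0.11 (adjusted p = 0.000882 by edgeR). Each of the 4 genes passed the threshold under all 13 alternative settings, with a highest adjusted p of 0.00684, for Itga2.

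**Figure D2:**
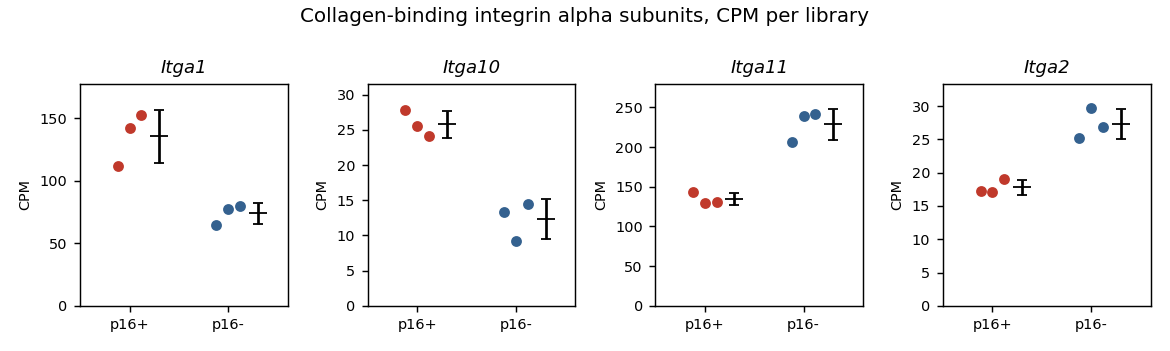
CPM of the 4 collagen-binding alpha subunits in each library, p16+ left and p16- right, with the mean and SD of 3 libraries beside the points. Itga1 and Itga10 are higher and Itga11 and Itga2 lower in p16+, with no overlap between groups.

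Itga1 and Itga2 lie next to each other on chromosome 13 of GRCm38, both on the minus strand, Itga2 at 114833081 to 114932100 and Itga1 at 114953096 to 115101964. The gap between them is 21.0 kb, and they went in opposite directions. Per length, Itga11 remained the most abundant of the class in every library. Its level in RPKM was 4.66, 3.31 and 3.11 times that of Itga1 in p16+ libraries, against 11.6, 11.1 and 10.97 times in p16- libraries. The share of Itga11 in the summed RPKM of the class was 64.0% ± 2.62 in p16+ and 81.4% ± 0.703 in p16- (SD, n = 3 each), and that of Itga1 17.8% ± 3.00 in p16+ and 7.25% ± 0.25 in p16- (SD, n = 3 each). The share of Itga10 was 12.1% ± 0.772 in p16+ and 4.37% ± 1.09 in p16- (SD, n = 3 each). The groups did not overlap in these 3 shares. The summed RPKM of the class was 41.7, 40.2 and 41.1 in p16+ libraries, against 49.7, 56.6 and 57.9 in p16- libraries. The exonic length of Itga1 in the files is 18599 bases, the longest of all members, which lowers its RPKM. Without division by length, Itga1 took 43.0% ± 5.13 of the counts of the class in p16+ and 21.6% ± 0.641 in p16-, and Itga11 43.1% ± 4.17 in p16+ and 66.8% ± 0.325 in p16- (SD, n = 3 each).

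In all, 34 shares within 9 classes were compared by exact two-sided permutation over the libraries. With 3 against 3 libraries the smallest p possible is 0.1, reached by the 21 shares whose groups did not overlap. None passed Benjamini-Hochberg adjustment, the smallest adjusted p being 0.162. The shares are therefore descriptions. Shares of the same class add up to the whole and are not independent. In the nidogens and the alpha4/alpha9 family, each share mirrors that of the other gene. The plot of composition per library shows the shares of the collagen-binding subunits, laminin alpha chains and nidogens.

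**Figure D3:**
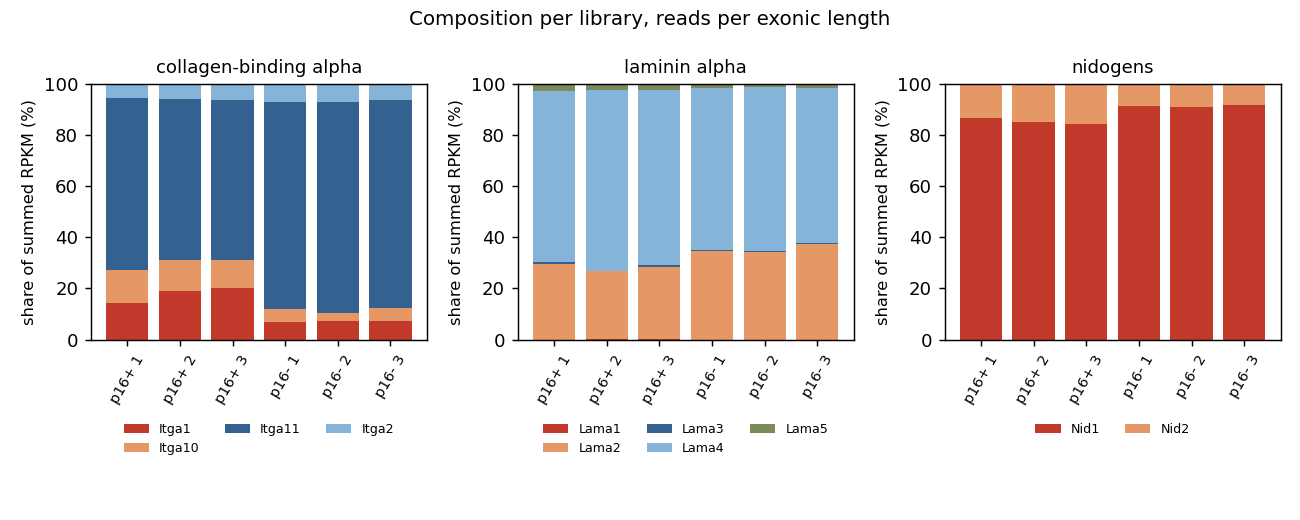
Share of each gene in the summed RPKM of its class, in percent, for each library, p16+ replicates left of p16- replicates. In p16+ libraries Itga11, Lama2 and Nid1 take a smaller part, and Itga1, Itga10, Lama4 and Nid2 a larger part, than in any p16- library.

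Itgb1, the common beta subunit and the CD29 of the sort, was the most abundant integrin gene at 218 RPKM in p16+ and 186 RPKM in p16-. It had 869, 913 and 893 CPM in p16+ libraries, against 696, 787 and 790.0 CPM in p16- libraries. The groups were apart but the gene did not pass, at a log2 fold change of 0.23 with SE 0.08 (adjusted p = 0.0543 by edgeR), and it was called higher in 5 of 13 alternatives: by DESeq2 (adjusted p = 0.00972), with no filter (adjusted p = 0.0434), with the stricter filter (adjusted p = 0.0452), with the replicate block (adjusted p = 0.0198) and without p16- replicate 2 (adjusted p = 0.0469). Its share of the beta subunits' summed RPKM was 62.1% ± 1.04 in p16+ and 63.4% ± 1.29 in p16- (SD, n = 3 each), with overlapping groups.

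Among receptors of RGD ligands, Itgb5 and Itgav, the subunits of the vitronectin receptor alphavbeta5 that also binds latent TGF-beta, were both higher in p16+. Itgb5 had 405, 389 and 403 CPM in p16+ libraries, against 288, 310.4 and 292 CPM in p16- libraries. The groups were clearly apart, at a log2 fold change of 0.43 with SE 0.07 (adjusted p = 0.000679 by edgeR), and the call held under all 13 alternatives. Itgav had 172, 191 and 183 CPM in p16+ libraries, against 126, 164 and 143 CPM in p16- libraries (log2 fold change of 0.33 with SE 0.09, adjusted p = 0.0215 by edgeR). The call of Itgav was lost on leaving out replicate 2 or 3 of p16+ or replicate 3 of p16- (adjusted p = 0.107, 0.0863 and 0.077) and under library sizes alone (adjusted p = 0.0559).

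Of the other beta subunits that pair with alphav, Itgb3 and Itgb8 did not pass and Itgb6 was called lower; differences from Itgb5 were not tested. Itgb3, the beta3 subunit of the other vitronectin receptor, had 75.2, 79.7 and 68.0 CPM in p16+ libraries, against 76.6, 101 and 89.5 CPM in p16- libraries. The groups overlapped and the gene did not pass (adjusted p = 0.0847 by edgeR), though it passed as lower without p16- replicate 1 (adjusted p = 0.00626), under library sizes alone (adjusted p = 0.0208), with no filter (adjusted p = 0.0311) and with the replicate block (adjusted p = 0.0269). In RPKM, Itgb5 stood at 8.95, 8.12 and 9.83 times Itgb3 in p16+ libraries, against 6.25, 5.10 and 5.41 times in p16- libraries. Itgb8, whose product activates latent TGF-beta with alphav, had 7.75 ± 1.63 CPM in p16+ libraries and 6.45 ± 0.191 CPM in p16- (SD, n = 3 each; adjusted p = 0.396 by edgeR). Itgb6, an epithelial activator of the same kind, was near the floor of detection, with 2, 3 and 13 counts in p16+ libraries against 44, 49 and 25 counts in p16- libraries. It was called lower (log2 fold change of -2.53 with SE 0.77, adjusted p = 0.0326 by edgeR), but it passed the filter on its p16- values, with 1 of 3 p16+ libraries over it, and without any 1 library other than p16+ replicate 3 the adjusted p was 0.0596 to 0.122.

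Itga5, the fibronectin receptor subunit and the most abundant RGD-binding alpha gene, had 206, 224 and 207 CPM in p16+ libraries, against 161, 213 and 179 CPM in p16- libraries. These values overlapped, and the gene did not pass (log2 fold change of 0.20 with SE 0.10, adjusted p = 0.172 by edgeR), except without p16- replicate 2 (adjusted p = 0.016) and with the replicate number as a block (adjusted p = 0.0423). Itga2b, the alpha subunit of the platelet fibrinogen receptor, had 17.1, 18.0 and 14.2 CPM in p16+ libraries, against 25.3, 23.3 and 19.9 CPM in p16- libraries. It was lower in p16+ (log2 fold change of -0.47 with SE 0.13, adjusted p = 0.0178 by edgeR), a call lost on leaving out p16+ replicate 3 (adjusted p = 0.0918) or p16- replicate 1 (adjusted p = 0.0674). Of the other platelet genes listed, Pf4 was higher at 6.62 CPM in p16+ libraries and 3.60 CPM in p16-, while Ppbp and Gp1ba did not pass, Gp9 and Gp1bb were not tested, and all 4 were under 1 CPM in both groups. The part of platelets in the value of Itga2b was not tested. Itga8, a nephronectin receptor subunit of mesenchyme, had 8.50 ± 0.641 CPM in p16+ libraries and 10.1 ± 2.04 CPM in p16- and did not pass (SD, n = 3 each; adjusted p = 0.396 by edgeR).

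**Figure D4:**
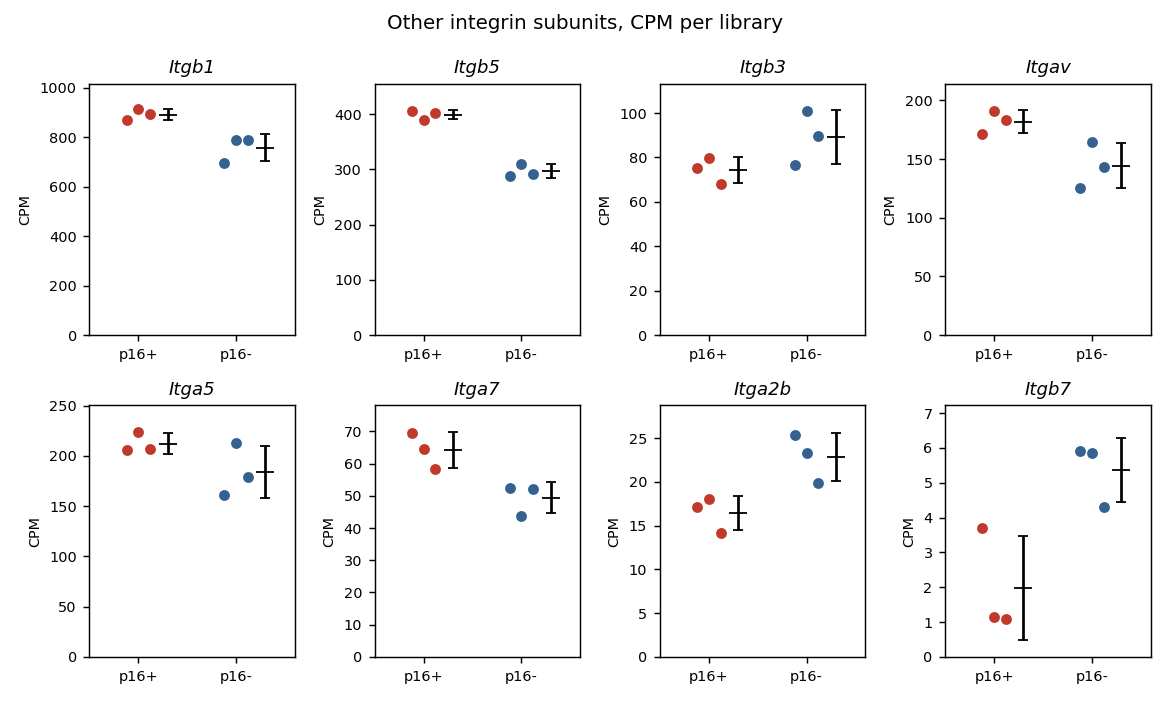
CPM of 8 further integrin subunits in each library, p16+ left and p16- right, with the mean and SD of 3 libraries. Itgb5, Itgav and Itga7 are higher and Itga2b and Itgb7 lower in p16+, and Itgb3 and Itga5 overlap between groups.

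Of the laminin-binding alpha subunits, 1 of 3 rose. Itga7, the alpha7 subunit that holds muscle cells to laminin and is also found on vascular smooth muscle, had 69.5, 64.6 and 58.4 CPM in p16+ libraries, against 52.5, 43.8 and 52.1 CPM in p16- libraries. The groups did not overlap (log2 fold change of 0.38 with SE 0.09, adjusted p = 0.0103 by edgeR), and the call was lost on leaving out p16+ replicate 1 (adjusted p = 0.0621). Of the pericyte and smooth muscle markers, 6 of 10 rose, among them Acta2 and Myh11, and 0 were called lower. Kcnj8, Abcc9, Cnn1 and Higd1b did not pass, at log2 fold changes of -0.35, 0.06, -0.43 and 0.01. Of all genes tested, 8.69% rose and 8.04% fell. Muscle markers were low, at 25.8 to 38.6 CPM summed in p16+ and 23.3 to 27.95 CPM in p16-, and 1 of 9 rose: Pax7, the satellite cell factor, at 7.57 CPM in p16+ libraries against 3.86 CPM in p16- libraries (log2 fold change of 0.97, adjusted p = 0.0184 by edgeR). The part of these cells in the values of Itga7 and Itga1 was not tested. Itga6, the alpha6 subunit of laminin receptors on epithelium, glia and vessels, had 9.26 ± 1.78 CPM in p16+ libraries and 7.36 ± 1.54 CPM in p16- (SD, n = 3 each; adjusted p = 0.288 by edgeR). Its partner Itgb4, the beta4 subunit of hemidesmosomes that Schwann cells also use, had 4.94 ± 0.575 CPM in p16+ libraries and 7.44 ± 2.79 CPM in p16- (SD, n = 3 each; adjusted p = 0.121 by edgeR). It passed as lower without p16- replicate 2 (adjusted p = 0.0189). Beside it, 8 of 10 Schwann and glial markers fell, Sox10 among them at 2.42 CPM in p16+ libraries and 8.05 CPM in p16-, and their part was not tested. Itga3, an epithelial laminin receptor subunit, had 0.354 to 2.01 CPM in p16+ libraries and 0.277 to 1.33 CPM in p16-.

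In the family of alpha4 and alpha9, which bind VCAM-1, fibronectin and tenascin C, 0 of 2 genes passed by edgeR, against 1 by DESeq2, and 1 had an unadjusted p under 0.05. Itga9, the more abundant, had 47.0, 41.8 and 50.9 CPM in p16+ libraries, against 34.0, 54.6 and 47.6 CPM in p16- libraries. The p16- libraries spanned the whole range of the p16+ ones, and the fold change was near 0 (log2 0.04, adjusted p = 0.9 by edgeR). Itga4, found on leukocytes and on some mesenchymal cells, had 4.98 ± 0.762 CPM in p16+ libraries and 2.71 ± 1.21 CPM in p16- (SD, n = 3 each; log2 fold change 0.88, adjusted p = 0.0601 by edgeR). It was called higher by DESeq2 (adjusted p = 0.0317), by edgeR with no filter (adjusted p = 0.0149) or with the replicate block (adjusted p = 0.0281), and without p16- replicate 3 (adjusted p = 0.0134).

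Leukocyte integrins were scarce in both groups, and 0 of their 3 tested alpha genes passed by edgeR, although 2 had an unadjusted p under 0.05 and DESeq2 called 1, Itgal. Itgb2, the shared beta2 subunit, had 20.2, 18.2 and 17.4 CPM in p16+ libraries, against 16.5, 12.5 and 15.5 CPM in p16- libraries. The groups did not overlap, but the gene did not pass (log2 fold change 0.33, adjusted p = 0.111 by edgeR). Itgax, the most abundant of the alpha genes, had 12.6, 10.8 and 10.7 CPM in p16+ libraries, against 7.23, 7.24 and 10.8 CPM in p16- libraries. Its groups overlapped through p16- replicate 3 (adjusted p = 0.114 by edgeR), without which it was called higher (adjusted p = 0.0267). Itgal, the alpha chain of LFA-1, had 2.89 ± 0.398 CPM in p16+ libraries and 1.53 ± 0.398 CPM in p16-, and Itgam, that of Mac-1, 3.56 ± 1.65 CPM in p16+ libraries and 2.58 ± 0.122 CPM in p16- (SD, n = 3 each; adjusted p = 0.0704 and 0.419 by edgeR). Itgal was called higher without p16- replicate 1 (adjusted p = 0.0441). Of the exonic length of Itgam, 68.7% is shared with Gm49368 on the same strand, and fragments in the shared part were not counted. Among macrophage and other leukocyte markers, 7 of 15 rose and 0 fell, beside 8.69% and 8.04% of all genes tested. Ptprc, the CD45 gene, had 5.37 to 9.77 CPM in p16+ libraries and 4.14 to 5.93 CPM in p16-. Lymphocyte markers summed to at most 1.96 CPM in p16+ libraries and 1.21 CPM in p16-.

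Itgb7, the beta subunit of gut-homing lymphocytes and mast cells, went the other way. It had 3.69, 1.14 and 1.080 CPM in p16+ libraries, against 5.92, 5.85 and 4.30 CPM in p16- libraries. All p16+ values were below all p16- values, with p16+ replicate 1 nearest to them (log2 fold change of -1.44 with SE 0.39, adjusted p = 0.0167 by edgeR). The call was lost on leaving out replicate 2 or 3 of p16+ or replicate 1 of p16- (adjusted p = 0.0778, 0.0855 and 0.0602).

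On the ligand side, the 4 most abundant laminin genes per length were those of the alpha4, beta1, beta2 and gamma1 chains. None of these 4 genes passed by edgeR, DESeq2 or any other alternative run, and 0 of them had an unadjusted p under 0.05. Lama2 came next, at 28.4 RPKM in p16+ and 37.6 RPKM in p16-, and was called lower, as given below. Lamc1, whose chain is shared by most laminins, had 1442, 1469 and 1429 CPM in p16+ libraries, against 1239, 1554 and 1600.1 CPM in p16- libraries. The p16+ values lay within the wider p16- range. Lamb1 had 1027, 1120.0 and 1123 CPM in p16+ libraries, against 996, 1068 and 1107 CPM in p16- libraries, and Lamb2 averaged 550.4 ± 66.8 CPM in p16+ libraries and 619 ± 38.6 CPM in p16- (SD, n = 3 each). Lama4 had 794, 871 and 851 CPM in p16+ libraries, against 702, 878 and 829.5 CPM in p16- libraries. Per length the beta1 and beta2 chains stood close to each other, at 109.9 and 90.5 RPKM in p16+ and 107 and 102 RPKM in p16-.

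The alpha2 and alpha5 chains differed between groups, in opposite directions. Lama2, the laminin chain of the muscle fibre sheath whose loss causes a congenital muscular dystrophy, had 473, 443 and 477 CPM in p16+ libraries, against 521, 633 and 691 CPM in p16- libraries. The groups did not overlap (log2 fold change of -0.40 with SE 0.10, adjusted p = 0.00751 by edgeR), and the call was lost on leaving out p16+ replicate 2 (adjusted p = 0.0534) or p16- replicate 3 (adjusted p = 0.0675). Lama5, a chain of mature epithelial and vascular basement membranes, had 31.1, 27.6 and 27.6 CPM in p16+ libraries, against 16.3, 18.7 and 21.3 CPM in p16- libraries. It was higher in every p16+ library (log2 fold change of 0.62 with SE 0.12, adjusted p = 0.00147 by edgeR) and was called under all 13 alternatives. Of 10 endothelial markers, 4 rose, Tek fell and 5 did not pass, where 8.69% of all genes tested rose and 8.04% fell. The median log2 fold change of that list was 1.05, against -0.01 over all genes tested. Pecam1, among those that rose, had 6.73 CPM in p16+ libraries and 3.34 CPM in p16-. Without p16+ replicate 3 only 2 endothelial markers rose, and of all genes 989 in place of 1382. Their part in the value of Lama5 was not tested. Of the summed RPKM of the 5 alpha chain genes, Lama4 took 68.8% ± 1.85 in p16+ and 62.8% ± 1.78 in p16-, and Lama2 28.2% ± 1.48 in p16+ and 35.4% ± 1.70 in p16- (SD, n = 3 each). The sum itself overlapped between groups, at 98.1 to 103 RPKM in p16+ and 91.7 to 113 RPKM in p16-.

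Lamc3, the gene of the gamma3 chain, described from nerve and retina, had 2.48, 2.10 and 0.876 CPM in p16+ libraries, against 4.97, 3.35 and 4.22 CPM in p16- libraries. It was lower in every p16+ library (log2 fold change of -1.20 with SE 0.35, adjusted p = 0.0256 by edgeR). The call was lost on leaving out replicate 3 of p16+ or replicate 1 or 3 of p16- (adjusted p = 0.0774, 0.0877 and 0.0768). Schwann and glial markers fell beside it, 8 of 10 where 8.04% of all genes tested fell. The median log2 fold change over their list was -1.40, and their part in the value of Lamc3 was not tested.

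The genes of the epithelial chains alpha3 and beta3 were scarce and did not pass. Lamb3 had 1.55 ± 0.625 CPM in p16+ libraries and 1.25 ± 0.669 CPM in p16-, and Lama3 5.46 ± 2.65 CPM in p16+ libraries and 2.98 ± 0.748 CPM in p16- (SD, n = 3 each; adjusted p = 0.734 and 0.0973 by edgeR). Lama3 was called higher without p16+ replicate 2 (adjusted p = 0.00751) and with no filter on low counts (adjusted p = 0.00942). Per length, Lama3 stood at 0.508 RPKM in p16+ and 0.277 RPKM in p16-, and Lamb3 at 0.235 RPKM in p16+ and 0.189 RPKM in p16-. Epithelial markers were at or under 1 CPM in each group, except Krt19, which fell to 4.06 CPM in p16+ libraries, against 19.9 CPM in p16-. Lama1, the embryonic alpha chain, had 12, 23 and 31 counts in p16+ libraries against 0, 16 and 0 counts in p16- libraries and did not pass (adjusted p = 0.225 by edgeR). It passed the filter on its p16+ values, with 1 of 3 p16- libraries over it, and was called higher without p16- replicate 2 (adjusted p = 0.0101), where the p16- libraries left had no count.

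All 4 linkers passed, 3 higher and 1 lower in p16+, where 16.7% of all genes tested passed in either direction. The calls of Nid2, Hspg2 and Agrn were each lost in some alternatives. Nid1, nidogen 1, which bridges the laminin gamma1 arm to collagen IV, was the most abundant of all 41 members per length in every library. It had 1780, 1764 and 1764 CPM in p16+ libraries, against 2257, 2614 and 2893 CPM in p16- libraries. The p16+ values were almost equal, and all lay below the p16- values (log2 fold change of -0.55 with SE 0.09, adjusted p = 0.000431 by edgeR). The call held under all 13 alternatives. Its paralog Nid2 had 202, 229 and 243 CPM in p16+ libraries, against 160.0, 192 and 194 CPM in p16- libraries. The groups did not overlap, in the direction opposite to Nid1 (log2 fold change of 0.31 with SE 0.09, adjusted p = 0.0336 by edgeR). Without replicate 2 or 3 of p16+ or replicate 1 of p16- the adjusted p of Nid2 was 0.12, 0.178 and 0.0639, and with library sizes alone 0.0856.

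The level of Nid1 in RPKM was 6.56, 5.74 and 5.40 times that of Nid2 in p16+ libraries, against 10.5, 10.2 and 11.1 times in p16- libraries. Relative to its laminin partner Lamc1, Nid1 stood at 1.47, 1.43 and 1.47 times in p16+ libraries, against 2.17, 2.00 and 2.15 times in p16- libraries. Both ratios were lower in every p16+ library than in any p16- library. They compare genes within a library and do not depend on the scaling between libraries. Nid2 has 8.45% of its exonic length overlapped by Rtraf on the opposite strand.

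Hspg2, the gene of perlecan, a heparan sulfate proteoglycan, had 2938, 3006 and 2952 CPM in p16+ libraries, against 1994, 2710.0 and 2509 CPM in p16- libraries. The p16+ values were tight and above the others, with p16- replicate 1 lowest (log2 fold change of 0.30 with SE 0.10, adjusted p = 0.0484 by edgeR). The call was lost without any 1 library other than p16- replicate 2 (adjusted p = 0.0557 to 0.154) and under library sizes alone (adjusted p = 0.114). Agrn, agrin, which clusters acetylcholine receptors at the neuromuscular junction and binds laminin, had 89.5, 117 and 106 CPM in p16+ libraries, against 74.4, 91.0 and 84.5 CPM in p16- libraries. It was the only called member whose groups overlapped, p16+ replicate 1 lying below p16- replicate 2 (log2 fold change of 0.32 with SE 0.10, adjusted p = 0.0375 by edgeR). Without replicate 2 or 3 of p16+ or replicate 1 or 3 of p16- its adjusted p was 0.213, 0.129, 0.089 and 0.09, and with library sizes alone 0.0876.

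**Figure D5:**
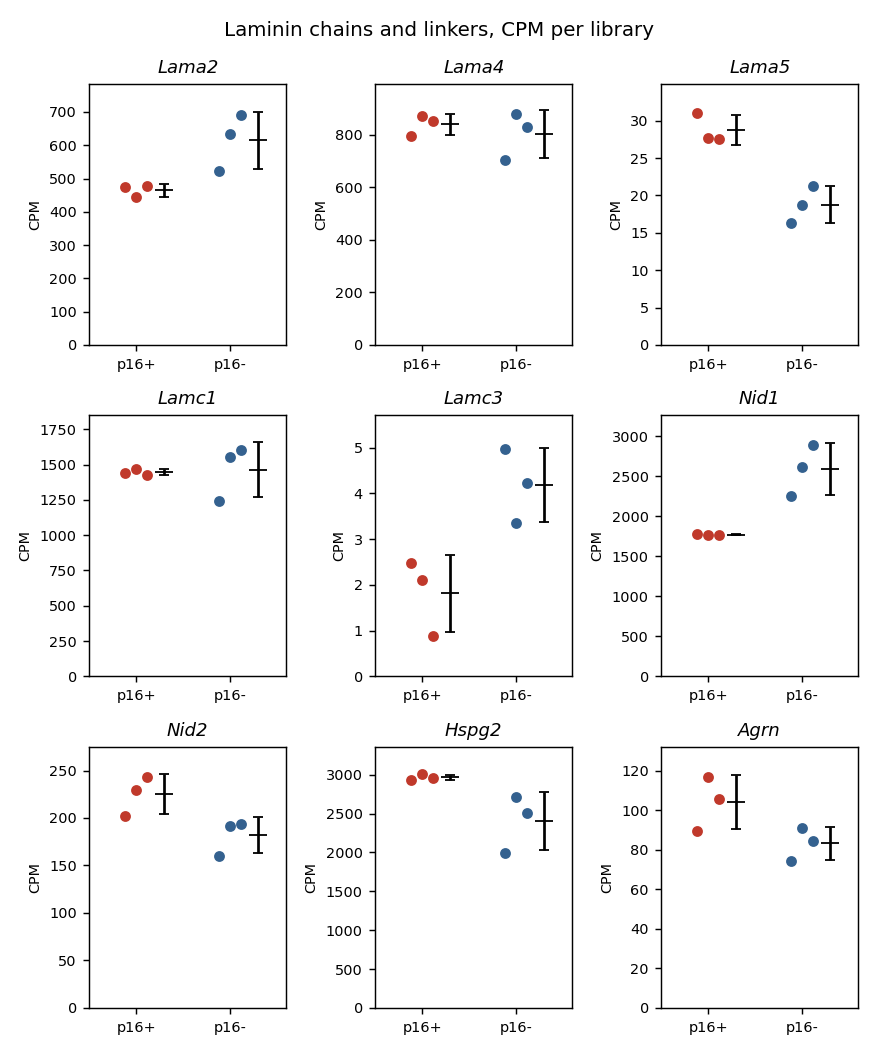
CPM of 5 laminin chain genes and the 4 linkers in each library, p16+ left and p16- right, with the mean and SD of 3 libraries. Lama2, Lamc3 and Nid1 are lower and Lama5, Nid2, Hspg2 and Agrn higher in p16+, while Lama4 and Lamc1 overlap between groups.

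Genes that work with these receptors and ligands were read from the same fit through 3 lists. Of 29 tested genes of integrin adaptors, which couple integrin tails to actin and signalling, 4 rose and 4 fell, where 8.69% of all genes tested rose and 8.04% fell, with a median log2 fold change of 0.08, against -0.01 over all genes tested. Lims2, the PINCH2 adaptor of integrin-linked kinase, fell to 15.9 ± 2.71 CPM in p16+ libraries, against 47.4 ± 2.98 CPM in p16- (SD, n = 3 each; adjusted p = 2.69e-07 by edgeR). Paxillin (Pxn), a scaffold of focal adhesions, fell to 87.9 ± 5.23 CPM in p16+ libraries, against 140.8 ± 3.96 CPM in p16-. The tensin Tns3 and the Cas family scaffold Nedd9 rose, to 103 ± 7.51 and 50.7 ± 2.05 CPM in p16+ libraries, against 56.5 ± 5.55 and 29.6 ± 0.582 CPM in p16- (SD, n = 3 each). On leaving out p16- replicate 1, and likewise under library sizes alone, 7 adaptors fell. Of all genes, 1194 and 1882 fell in these runs, in that order, against 1278 in the main run.

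Of 35 tested basement membrane partners and receptors outside the members, 7 rose and 7 fell, beside 8.69% and 8.04% of all genes tested. The median log2 fold change was 0.18, against -0.01 over all genes. Col18a1, the collagen whose end fragment is endostatin, and Frem1, of the Fraser complex at epithelial borders, rose by 1.11 and 1.09 on the log2 scale. Efemp1, the fibulin 3 gene, and Col4a4, a minor collagen IV chain, fell by 0.98 and 1.05 on the log2 scale. The main collagen IV genes did not pass: Col4a1 had 2544 ± 162 CPM in p16+ libraries and 2504 ± 163 CPM in p16-, and Col4a2 1659 ± 115 CPM in p16+ libraries and 1433 ± 54.1 CPM in p16- (SD, n = 3 each; adjusted p = 0.895 and 0.0868 by edgeR). These 2 genes were named after their values were seen. Dag1, the dystroglycan gene, was named likewise, at 373 ± 5.88 CPM in p16+ libraries and 349 ± 33.9 CPM in p16- (SD, n = 3 each; adjusted p = 0.497 by edgeR).

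Of 22 tested genes listed as integrin ligands outside the laminins, 14 rose and 3 fell, beside 8.69% and 8.04% of all genes tested. The median log2 fold change was 0.43, against -0.01 over all genes. Without p16+ replicate 3 it was 10 that rose, and of all genes 989 in place of 1382. The list also held Lrrc32, which rose, and Nrros, which was not called. Their products bind latent TGF-beta and are not themselves integrin ligands. Tnc, tenascin C, a ligand of alpha9 and alphav integrins, rose by 1.49 on the log2 scale, Spp1, osteopontin, by 1.68, and Tnn, tenascin W, by 1.39. Ccn2, the connective tissue growth factor gene, had 214 ± 4.57 CPM in p16+ libraries and 121 ± 4.08 CPM in p16- (SD, n = 3 each; adjusted p = 1.18e-06 by edgeR). Of the exonic length, 18.8% of Spp1 and 23.2% of Ccn2 is overlapped by another gene.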

How the data were processed

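RNA was measured in 6 libraries, 3 of p16+ and 3 of p16- cells, prepared with an unstranded kit and sequenced paired-end, per the labels' protocols. The deposited values are raw fragment counts per gene from featureCounts 1.6.0 on GENCODE vM21 exons, per the file headers, at defaults for strand and for overlapping genes. The submitters' processing notes name STAR 2.7.3a and GRCm38.p6. The exonic length per gene is the deposited value of the same program.

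All 55536 identifiers matched vM21, from which symbols came. The members, classes and lists were chosen with earlier results of these data known. Genes were filtered with filterByExpr (15903 left, holding 99.9% of counts), scaled with TMM and tested with edgeR 4.0.16 (glmQLFit, robust, group alone) in R 4.3.3, with Benjamini-Hochberg adjustment over all genes and a threshold of 0.05. Fold changes are p16+ over p16-, and SE is the log2 fold change over the root of F. A count of 3 equals 0.0737 to 0.0876 CPM, and intervals and floors cover counting error only. The test was tested on simulated data. Named are the sort genes, the members (values of 1 are not reported here but enter the counts), and of each further list up to 4 called genes with the smallest p. Members called, the most abundant of a class and their partners have values per library. Alternatives were RLE and upper-quartile factors, library sizes alone, no filter, a filter at 1 CPM in 3 libraries, DESeq2 1.42.0, a replicate block, shares without length and leaving out each library. Promoters (26 of 41 members matched) are RefSeq's for GRCm38.p6. No library pair held identical values.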

Additional observations from a re-analysis of the deposited data

How the results depend on the processing

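Of the 18 called members, 8 kept their call in all 13 alternatives (among them Itga1, Itga2, Itga10, Itga11, Itgb5, Lama5 and Nid1), 10 lost it in at least 1, and 0 changed sign (Itgb6 was not tested under the stricter filter). With library sizes alone, 5 members in place of 9 and 1 laminin or linker gene in place of 4 were higher, and of all genes 1059 in place of 1382. DESeq2 called 8 integrin genes higher in place of 5, and of all genes 1585 in place of 1382. Leaving out a library gave 5 to 12 members higher and 6 to 9 lower, 4 to 7 integrin genes higher and 3 to 5 lower, and 1 to 5 laminin and linker genes higher and 2 to 4 lower. Over all genes it gave 977 to 1333 higher and 910 to 1234 lower, against 1382 and 1278 with every library. The cause of these changes was not tested.

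With the replicate number as a block, 8 integrin genes in place of 5 were called higher (Itgb1, Itga5 and Itga4 were added, at adjusted p = 0.0198, 0.0423 and 0.0281), Itgb3 was called lower (adjusted p = 0.0269), and 1605 genes rose and 1509 fell. Deviations of same-numbered libraries correlated at 0.0284, 0.0821 and -0.0046, and those of differently numbered libraries at -0.069 to 0.0394. With 3 libraries per group, these values cannot decide whether same-numbered libraries were paired. The deviations of p16+ replicate 1 correlated better with p16- replicate 3 than with p16- replicate 1.

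Uncalled members near 0 changed sign. Itga9 was at -0.0365 (log2) with library sizes alone and at -0.132 to 0.193 when a library was left out. Itga3 was at -0.00448 with library sizes alone, -0.00751 with the replicate block, and -0.937 to 0.479 when a library was left out. Lama4 was at -0.0118 with library sizes alone and -0.0231 to 0.133 when a library was left out, and Lamb1 at -0.0302 with library sizes alone. Lamc1 was at -0.122 to 0.0534 when a library was left out. Depth limits Itgad, Itgae, Itgb6 and Lama1, which had few counts. The 21 shares whose groups did not overlap had the same direction without division by length. In classes of 2 genes, the nidogens and the alpha4/alpha9 family, this was fixed in advance and is no check.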
